A study of Saccharomyces cerevisiae S288C with 8 samples.

Results

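The 10 genes that encode the core histones, the histone variant H2A.Z and the linker histone of Saccharomyces cerevisiae were examined for peaks of Cse4, the variant of histone H3 (CENP-A in humans) that marks the centromere. They were chosen by name and placed on the R64 reference annotation, where they are 10 of 6002 nuclear protein-coding genes. HTA1 and HTA2 encode H2A, HTB1 and HTB2 encode H2B, HHT1 and HHT2 encode H3, and HHF1 and HHF2 encode H4. Together these 8 core genes lie as the divergent pairs HTB1-HTA1, HTA2-HTB2, HHF1-HHT1 and HHT2-HHF2, so their 4 shared promoters are 4 of the 1527 divergent promoters of the genome. HTZ1 encodes H2A.Z and HHO1 encodes the H1-like linker histone.

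The study asked where Cse4 is found when the kinase Cdc7 is impaired and when Cse4 is overexpressed. Chromatin of 4 conditions was precipitated with an anti-FLAG M2 gel and sequenced, with 1 ChIP library and 1 input library in each. The cdc7-7 GAL-CSE4 cells (genotype GAL-CSE4-FLAG cdc7-7) and the WT GAL-CSE4 cells (GAL-CSE4-FLAG) were grown for 1.75 hours in raffinose/galactose, which turns on the GAL promoter. The cdc7-7 endogenous Cse4 cells (CSE4-HA cdc7-7) and the WT endogenous Cse4 cells (CSE4-HA) were grown for the same time in glucose. cdc7-7 is a temperature-sensitive allele, used at a permissive temperature, of the catalytic subunit of the Dbf4-dependent kinase. Overexpression and medium changed together, so their parts cannot be told apart. The labels give an HA tag for endogenous Cse4 while the precipitating gel binds FLAG and the study's text speaks of a Flag tag, and which tag these strains carried was not settled here. With 1 library per condition there is no replicate error, and every difference between lists below is a difference between libraries.

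Histone genes are transcribed in a burst around the start of S phase, when new nucleosomes are needed, and the divergent arrangement of each pair keeps the partners of a dimer in step. In budding yeast the activator Spt10 binds upstream elements in these promoters, and the G1 factors SBF and MBF add to the timing. The HIR complex holds most of the pairs down outside S phase. Cse4 takes the place of H3 in the centromeric nucleosome, and the dosage of H3 and H4 is known to affect how much Cse4 enters chromatin elsewhere, so the loci that make H3 and H4 are of interest in a study of misplaced Cse4.

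A stretch of 250 bp of each shared core promoter is shown, centered on its Spt10 elements, because this element is what the 4 promoters have in common and the peaks are set against it further on. The sequences are from the R64 reference, read 5′ to 3′ on the plus strand, and capitals mark each match, on either strand, to the Spt10 element searched for here, TTCCNNNNNNTTCNC. The HTB1-HTA1 stretch is chrIV:915007-915256, that of HTA2-HTB2 chrII:235990-236239, that of HHF1-HHT1 chrII:255826-256075 and that of HHT2-HHF2 chrXIV:576228-576477. All 4 are intergenic, between the start codons of the pair.
HTB1-HTA1 shared promoter: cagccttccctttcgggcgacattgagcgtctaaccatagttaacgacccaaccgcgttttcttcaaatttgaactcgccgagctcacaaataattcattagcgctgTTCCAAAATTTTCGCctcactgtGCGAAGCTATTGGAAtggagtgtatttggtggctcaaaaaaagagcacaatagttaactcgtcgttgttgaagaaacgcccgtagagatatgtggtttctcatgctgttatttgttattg
HTA2-HTB2 shared promoter: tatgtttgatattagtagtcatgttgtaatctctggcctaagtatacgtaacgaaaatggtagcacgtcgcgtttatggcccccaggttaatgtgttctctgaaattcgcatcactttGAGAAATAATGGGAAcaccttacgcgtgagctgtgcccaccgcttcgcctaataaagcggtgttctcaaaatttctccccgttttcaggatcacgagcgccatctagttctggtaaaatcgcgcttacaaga
HHF1-HHT1 shared promoter: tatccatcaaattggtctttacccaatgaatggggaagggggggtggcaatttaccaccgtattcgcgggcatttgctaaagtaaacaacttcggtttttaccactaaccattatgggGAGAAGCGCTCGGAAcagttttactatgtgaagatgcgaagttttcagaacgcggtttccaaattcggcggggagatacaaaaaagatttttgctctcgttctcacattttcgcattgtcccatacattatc
HHT2-HHF2 shared promoter: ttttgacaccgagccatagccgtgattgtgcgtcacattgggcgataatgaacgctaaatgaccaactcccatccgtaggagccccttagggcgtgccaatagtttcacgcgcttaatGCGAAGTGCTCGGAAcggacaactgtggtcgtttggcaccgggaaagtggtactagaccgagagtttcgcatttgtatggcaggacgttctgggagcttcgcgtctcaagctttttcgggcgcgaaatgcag

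The Spt10 element was searched for because Spt10 acts at these promoters, so its presence there is no separate finding. Each of the 4 core histone promoters held the Spt10 element, against 4.52% of all 1527 divergent promoters and 10.3% of the 213 of similar length (646 to 817 bp). HTB1-HTA1 held 2 matches and the others 1 each. The SBF core CGCGAAA, searched on both strands, was in 2 of the 4 (HTB1-HTA1 and HHT2-HHF2), against 7.4% of all divergent promoters, and the MBF core ACGCGT was in HTA2-HTB2, against 6.81% of all. No match of one motif overlapped a match of another in these promoters. The A+T share ran from 57.5% in HHT2-HHF2 to 66.5% in HTA2-HTB2, around the median of 63.9% over all divergent promoters. Every 50-base word of the 4 shared promoters occurs once in the nuclear genome, so uniquely placed reads could cover all of them. The coding sequences share more: 78.7% of the 50-base words were unique in HHF1 and in HHF2, 87.8% in HHT1 and in HHT2, 95.4% in HTA1 and in HTA2, and 100% in the other members. HHF1 and HHF2 were identical at 97.4% of their 312 bp, with a run of 80 identical bases, and a read pair that lies wholly within such a run cannot be placed at either copy. The words were compared exactly, whereas the authors' alignment allowed mismatches. Fewer reads may thus be uniquely placed in these coding sequences than the shares of unique words imply.

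The deposited lists held 2203 peaks in cdc7-7 GAL-CSE4, 46 in WT GAL-CSE4, 183 in cdc7-7 endogenous Cse4 and 811 in WT endogenous Cse4. Of these, 2188 in cdc7-7 GAL-CSE4, 30 in WT GAL-CSE4, 167 in cdc7-7 endogenous Cse4 and 795 in WT endogenous Cse4 did not touch a centromere. The fold enrichment of a peak is the number of ChIP fragments stacked at its summit (the pileup) over the number expected from the input (the background), each plus 1. The median background at the centromere peaks, a measure of depth, was 146 fragments in cdc7-7 GAL-CSE4, 37.9 in WT GAL-CSE4, 76.2 in cdc7-7 endogenous Cse4 and 200.3 in WT endogenous Cse4. At the median background of the non-centromere peaks, the weakest p in each list corresponded to a fold enrichment of 1.22 in cdc7-7 GAL-CSE4, 1.65 in WT GAL-CSE4, 1.41 in cdc7-7 endogenous Cse4 and 1.21 in WT endogenous Cse4. A promoter without a peak may still hold Cse4 below these values, and the WT GAL-CSE4 list could show only the larger enrichments.

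Overexpressed Cse4 in cdc7-7 left no peak on any of the 4 core histone promoters, although 57.3% of all divergent promoters carried a peak in that list. Among the 213 divergent promoters of the same length range the share was 60.6%. In WT GAL-CSE4 the count was also 0 of 4, in a list where 0.393% of divergent promoters had a peak. The count was 2 of 4 in cdc7-7 endogenous Cse4, against 1.83% of all divergent promoters, and 2 of 4 in WT endogenous Cse4, against 10.9%. The sets of promoters differed, being HHF1-HHT1 and HHT2-HHF2 in cdc7-7 endogenous Cse4, and HTA2-HTB2 and HHT2-HHF2 in WT endogenous Cse4. The cdc7-7 endogenous Cse4 calls rest on 8 bp of HHF1-HHT1 (1.24%) and 43 bp of HHT2-HHF2 (6.36%), and the count was 0 of 4 where the summit or 50% of the peak had to lie in the promoter. The WT endogenous Cse4 count was 1 of 4 by the summit, and 0 of 4 by 50% of the peak or at scaled depth, where pileup and background are brought down to those of WT GAL-CSE4.

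**Figure D1:**
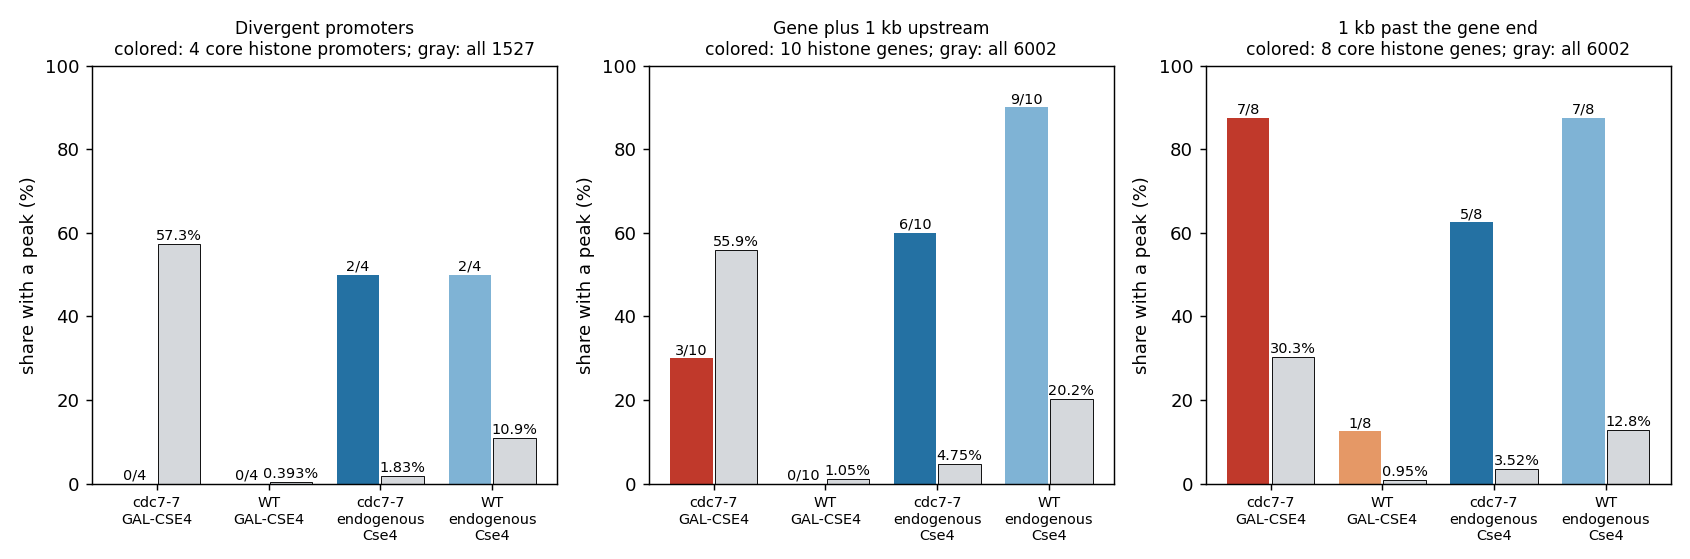
Share (%) of histone promoters or genes with a Cse4 peak (colored bars, with counts above) and of all promoters or genes of the genome (gray bars, with percentages above), for the 4 peak lists. In cdc7-7 GAL-CSE4 the core histone promoters stand at 0 of 4 beside 57.3%. The 1 kb past the gene end is a window added after the data were seen. There 7 of 8 core genes have a cdc7-7 GAL-CSE4 peak beside 30.3%, or 6 of 8 beside 29.9% without centromere peaks.

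Over the wider window, the gene plus 1 kb upstream of its start codon, 3 of the 10 genes had a peak in cdc7-7 GAL-CSE4 (HTA2, HTB2 and HHO1), against 55.9% of all genes. In WT GAL-CSE4 the count was 0 of 10, against 1.05%. The cdc7-7 endogenous Cse4 list had 6 of 10, against 4.75%, with HTA2, HTB2, HHT1, HHF1, HHT2 and HHF2. The WT endogenous Cse4 list had 9 of 10, against 20.2%, with every member but HHO1, and 0 of 10 at scaled depth. Partners share most of this window, because 1 kb upstream of either gene reaches into the other, so a peak was often counted for both. The distinct peaks behind these counts were 2 in cdc7-7 GAL-CSE4, 0 in WT GAL-CSE4, 6 in cdc7-7 endogenous Cse4 and 7 in WT endogenous Cse4. The centromere peak of chromosome II was 1 of the 6. The median fold of centromere peaks was 8.58 in cdc7-7 endogenous Cse4 and 5.45 in WT endogenous Cse4. The other peaks behind the counts stood lower, at 1.66 to 2.13 in the first and 1.23 to 1.58 in the second. The study reported the endogenous protein mainly at centromeres in both strains, and not mislocalized to distinct other sites in the mutant. No library was a ChIP from an untagged strain, so how much of the lower peaks is Cse4 was not tested.

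In cdc7-7 GAL-CSE4 the peaks stood beside the core histone promoters instead of on them. The nearest peak to the HTA2-HTB2 promoter ended 300 bp from it. The distance was 489 bp for HHT2-HHF2, 598 bp for HHF1-HHT1 and 610 bp for HTB1-HTA1. These distances were short beside the median of 2633.5 bp over the 652 divergent promoters without a peak in that list. From the promoter's middle to the nearest summit it was 1004 bp at HHT2-HHF2, 1110 bp at HTA2-HTB2, 1305 bp at HHF1-HHT1 and 1391 bp at HTB1-HTA1. The median over all 1527 was 425 bp, and 40.4% of them lay 1004 bp or more from a summit.

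**Figure D2:**
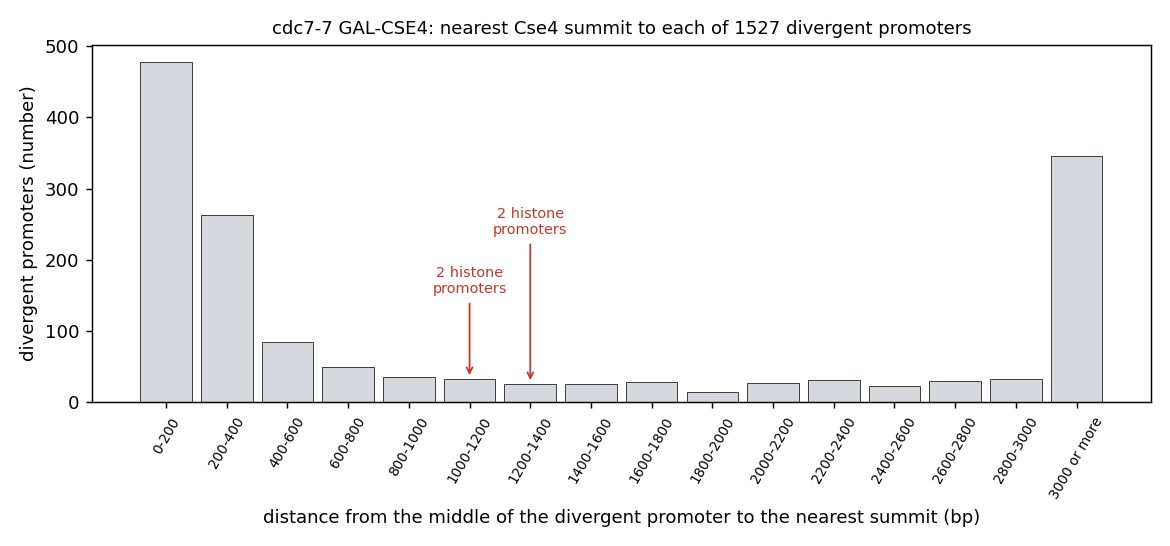
Number of divergent promoters (vertical axis) by the distance in bp from the promoter's middle to the nearest Cse4 summit in cdc7-7 GAL-CSE4 (horizontal axis, bins of 200 bp, with everything from 3000 bp on in the last). The 4 core histone promoters, marked by arrows, fall between 1004 and 1391 bp, in bins that hold 33 and 26 promoters. The first bin, within 200 bp, holds 478. The last bin, which is far wider than the others, holds the 346 with no summit within 3000 bp.

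WT GAL-CSE4 had no such neighbors, apart from the centromere peak of chromosome II at 1287 bp from HTA2-HTB2. That same centromere peak was the nearest to HHF1-HHT1, at 16994 bp, and the nearest peak to HTB1-HTA1 was 273930 bp away.

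The neighboring peaks in cdc7-7 GAL-CSE4 led to a count of the 1 kb past each gene's end, a window added after the data were seen. In cdc7-7 GAL-CSE4 7 of the 8 core genes had a peak there, all but HHT1, against 30.3% of all genes. The peak past HTB2 was that of the centromere, and without centromere peaks the count was 6 of 8, against 29.9% of all genes. In WT GAL-CSE4 it was 1 of 8, again HTB2 and the centromere, against 0.95% of all genes. It was 5 of 8 in cdc7-7 endogenous Cse4, against 3.52%, and 7 of 8 in WT endogenous Cse4, against 12.8%. HTB2 was again counted through the centromere peak in both. Without centromere peaks the count was 4 of 8 in cdc7-7 endogenous Cse4 and 6 of 8 in WT endogenous Cse4. The share of all genes without centromere peaks was not computed for these lists. The window reaches into the next gene at several of these loci, and the peaks of the endogenous lists often spanned the gene and its flank together.

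**Figure D3:**
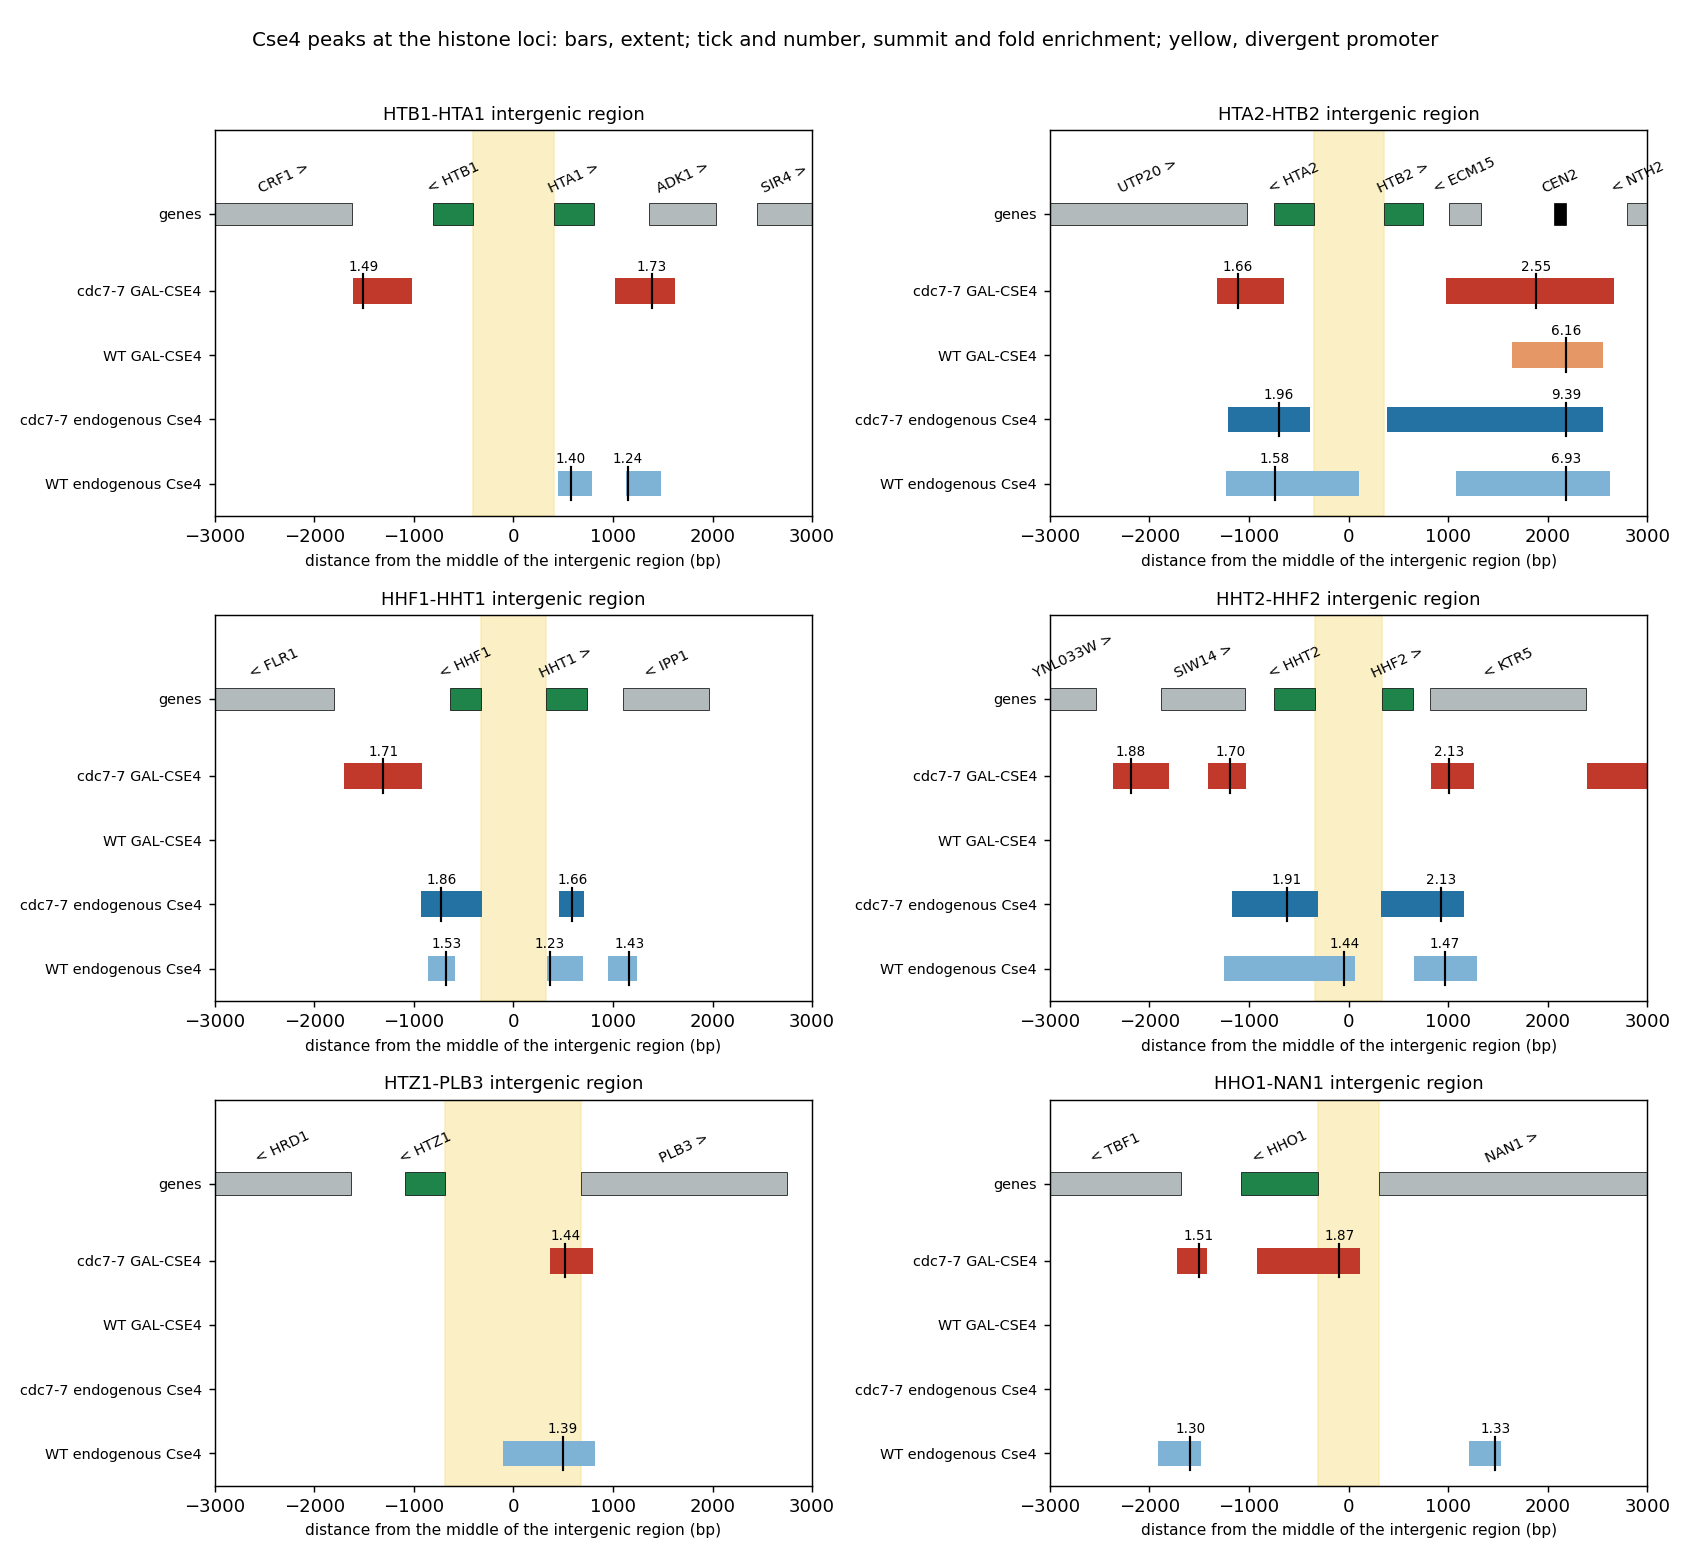
Maps of the 6 histone loci, with distance in bp from the middle of the intergenic region on the horizontal axis, histone genes in green, other genes in gray with arrowheads for their direction, the centromere in black, and 1 row of peaks for each list (bar, extent of the peak; tick, its summit; number, its fold enrichment). The yellow band is the divergent promoter, which is free of cdc7-7 GAL-CSE4 peaks at the 4 core pairs and holds such a peak at HTZ1-PLB3 and HHO1-NAN1. In that list 57.3% of all divergent promoters held a peak.

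The HHT2-HHF2 locus, which makes H3 and H4, had the strongest non-centromere peak of the core histone loci in both cdc7-7 lists, by fold, and in WT endogenous Cse4 that place was held by HTA2. HHF2 (YNL030W, chromosome XIV, 576727 to 577038, plus strand) is followed by KTR5, a gene of a mannosyltransferase family that is transcribed toward it. In cdc7-7 GAL-CSE4 a peak of 436 bp lay 177 bp past the end of HHF2, with its summit 354 bp past it, inside the 3′ end of KTR5. Its pileup was 322 over a background of 151, a fold enrichment of 2.13, the 34th highest of 2188 non-centromere peaks. A cdc7-7 endogenous Cse4 peak of 840 bp covered the whole of HHF2 and the same end of KTR5, with a pileup of 167 over 77.8, a fold of 2.13, the 6th highest of 167. A WT endogenous Cse4 peak of 640 bp began 2 bp past HHF2, with a pileup of 273 over 185, a fold of 1.47, at rank 213 of 795. The summits of the 3 lists lay within 74 bp of each other, all in KTR5, so the place was shared while the extent toward HHF2 was not. WT GAL-CSE4 had no peak closer than the centromere of chromosome XIV, 51813 bp from the promoter.

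The 121 bp around the strongest of these summits, in cdc7-7 GAL-CSE4, are given with the summit base in capitals, from R64 chrXIV:577332-577452 on the plus strand, with the corresponding stretches at the summits beside HTA1 (chrIV:916452-916572) and HHO1 (chrXVI:309752-309872), which are described further on. The A+T share was 52.1% past HHF2, 56.2% past HTA1 and 61.2% upstream of HHO1, against a median of 60.3% over such stretches at all non-centromere summits of that list.
HHF2 flank: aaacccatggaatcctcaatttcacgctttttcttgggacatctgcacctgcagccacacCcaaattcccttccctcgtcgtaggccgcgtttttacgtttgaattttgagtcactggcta
HTA1 flank: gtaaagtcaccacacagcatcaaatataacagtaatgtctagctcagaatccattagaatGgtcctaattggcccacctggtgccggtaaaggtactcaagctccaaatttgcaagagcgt
HHO1 upstream: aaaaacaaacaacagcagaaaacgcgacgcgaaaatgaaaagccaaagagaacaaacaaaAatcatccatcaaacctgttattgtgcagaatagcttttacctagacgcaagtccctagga

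HHT2 (YNL031C, chromosome XIV, 575640 to 576050, minus strand) was covered along its whole length in both endogenous lists. The cdc7-7 endogenous Cse4 peak of 864 bp had its summit inside HHT2, 284 bp from the start codon, with a pileup of 170 over 88.3, a fold of 1.91 and rank 22 of 167, and it reached 26 bp into the shared promoter. With the 17 bp that the HHF2 peak covered from the other side, 43 bp of the promoter lay under peaks in that list, at its edges and away from the Spt10 element. The WT endogenous Cse4 peak of 1315 bp ran through HHT2 into the promoter and covered 397 bp of it (58.7%), with a pileup of 329 over 228, a fold of 1.44 and rank 252 of 795. Its summit lay 44 bp from the middle of the promoter and 2 bp from the Spt10 element, and it was the only summit inside a core histone promoter in any of the 4 lists. The other Spt10 elements were farther from a WT endogenous Cse4 summit. The distance was 412 bp at HHF1-HHT1, 547 and 570 bp at HTB1-HTA1 and 706 bp at HTA2-HTB2. The HTA2-HTB2 element nevertheless lay inside a peak of that list. In cdc7-7 GAL-CSE4 the only nearby peak was 282 bp past the end of HHT2, with its summit inside SIW14, which encodes a phosphatase, a pileup of 254 over 149 and a fold of 1.70 (rank 460 of 2188). So the cdc7-7 GAL-CSE4 summits flanked this pair on both sides, and the pair itself was free of them.

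At the other H3-H4 locus, HHF1-HHT1, the place of the peaks differed between lists. HHF1 (YBR009C, chromosome II, 255373 to 255684, minus strand) had its cdc7-7 GAL-CSE4 peak 286 bp past its end, with a pileup of 267 over 156 and a fold of 1.71 (rank 444 of 2188). That summit was 493 bp upstream of the start codon of FLR1, a gene for a plasma membrane transporter, so the peak stood in the promoter region of FLR1. The cdc7-7 endogenous Cse4 peak covered all 312 bp of HHF1 and had its summit 91 bp past the gene, with a pileup of 154 over 82.5, a fold of 1.86 and rank 27 of 167. It reached 8 bp into the shared promoter, which is what counted HHF1-HHT1 among the promoters with a peak. A WT endogenous Cse4 peak of 273 bp covered the last 47 bp of HHF1, with a pileup of 292 over 190.3, a fold of 1.53 and rank 138 of 795. The summits of the endogenous lists were 52 bp apart, and that of cdc7-7 GAL-CSE4 lay 580 bp from the cdc7-7 one and 632 bp from the WT one.

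HHT1 (YBR010W, chromosome II, 256331 to 256741, plus strand) had a peak inside its coding sequence in both endogenous lists and none in either GAL-CSE4 list. That of cdc7-7 endogenous Cse4, 254 bp wide, had a pileup of 139 over 83.2, a fold of 1.66 and rank 90 of 167. That of WT endogenous Cse4, 357 bp wide, had a pileup of 271 over 220.5 and a fold of 1.23, at rank 772 of 795 among the weakest of its list. A further WT endogenous Cse4 peak lay past HHT1 inside IPP1, the gene for inorganic pyrophosphatase, with a fold of 1.43. HHT1 was the only core gene with no cdc7-7 GAL-CSE4 peak within 1 kb of either end, since the peak nearest to it was the one past HHF1, 1244 bp away.

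The H2A-H2B locus on chromosome II is the core histone locus beside a centromere, with CEN2 1319 bp past the end of HTB2. HTB2 (YBL002W, 236492 to 236887, plus strand) had no peak of its own in any list. The CEN2 peak had a fold of 2.55 in cdc7-7 GAL-CSE4, 6.16 in WT GAL-CSE4, 9.39 in cdc7-7 endogenous Cse4 and 6.93 in WT endogenous Cse4. In cdc7-7 endogenous Cse4 it was 2167 bp wide and took in the last 357 bp of HTB2. Its near edge lay between 231 and 891 bp past the gene in the other 3 lists. In cdc7-7 GAL-CSE4 HTB2 was counted only because the peak at the end of HTA2 reached 2 bp into its upstream window.

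HTA2 (YBL003C, 235394 to 235792, minus strand) had a peak in 3 lists. It covered 359 bp of the gene in cdc7-7 endogenous Cse4 and all 399 bp in WT endogenous Cse4. In cdc7-7 GAL-CSE4 the peak of 674 bp covered the last 100 bp of the gene, with its summit 362 bp past the end, inside UTP20, a gene for ribosome assembly, a pileup of 249 over 149.6 and a fold of 1.66 (rank 585 of 2188). The cdc7-7 endogenous Cse4 summit was inside HTA2, 46 bp before its end, with a pileup of 187 over 94.8, a fold of 1.96 and rank 17 of 167. The WT endogenous Cse4 summit was 38 bp from that one, with a pileup of 360 over 228, a fold of 1.58 and rank 105 of 795, and the peak of 1339 bp ran on over 454 bp (64.9%) of the HTA2-HTB2 promoter. The cdc7-7 GAL-CSE4 summit lay on the UTP20 side, 408 bp from the cdc7-7 endogenous Cse4 summit and 370 bp from the WT one.

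HTA1 and HTB1, the H2A-H2B locus on chromosome IV, had 1 distinct peak over the 4 lists in the window of gene plus 1 kb upstream, in WT endogenous Cse4, and flanking peaks besides. HTA1 (YDR225W, 915530 to 915928, plus strand) had a peak inside its coding sequence in WT endogenous Cse4, 345 bp wide, with a pileup of 310 over 220.4, a fold of 1.40 and rank 329 of 795. A weaker WT endogenous Cse4 peak, with a fold of 1.24, began 327 bp past the gene. In cdc7-7 GAL-CSE4 the peak past HTA1 had a pileup of 267 over 154 and a fold of 1.73 (rank 395 of 2188), and its summit was 26 bp inside ADK1, the adenylate kinase gene that follows in the same direction. HTB1 (YDR224C, 914317 to 914712, minus strand) had a cdc7-7 GAL-CSE4 peak 217 bp past its end, toward the end of CRF1, with a pileup of 223 over 149 and a fold of 1.49 (rank 1281 of 2188), and was counted in WT endogenous Cse4 only through the peak in HTA1. The nearest cdc7-7 endogenous Cse4 peak was 44337 bp from HTA1 and 43124 bp from HTB1, so this pair had none where the other 3 pairs did.

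Some summits thus had nearly the same place in several lists, as in KTR5, or in the endogenous lists at HTA2 and past HHF1. Others fell in different places. Of the 5 non-centromere peaks behind the cdc7-7 endogenous Cse4 counts, 3 had their summit inside a histone gene, and so had 3 of the 7 in WT endogenous Cse4. In cdc7-7 GAL-CSE4 neither of the 2 did, though that at HTA2 was inside a neighboring gene, UTP20. The summit past HHF2 was likewise inside a neighboring gene, KTR5, in both endogenous lists. Over whole lists the measure was wider, a summit inside any protein-coding gene. The summits in UTP20 and KTR5 would count under it, so the counts above are not on the same measure as these shares. It gave 30.9% of non-centromere summits in cdc7-7 GAL-CSE4, 43.3% in WT GAL-CSE4, 70.7% in cdc7-7 endogenous Cse4 and 63.3% in WT endogenous Cse4.

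HTZ1 and HHO1 do not lie opposite another histone gene, and their divergent promoters did hold cdc7-7 GAL-CSE4 peaks. HHO1 (YPL127C, chromosome XVI, 308828 to 309604, minus strand) faces NAN1, a gene for processing of ribosomal RNA. Its cdc7-7 GAL-CSE4 peak of 1029 bp had its summit between the genes, 208 bp upstream of the HHO1 start codon and 398 bp upstream of that of NAN1. With a pileup of 266 over 141 and a fold of 1.87 it ranked 170 of 2188 in the list and 71 of the 932 peaks that touch a divergent promoter. That made it the strongest peak in the window of any of the 10 genes in that list, and it covered 615 bp of the gene. HHO1 had no peak in its window in the other 3 lists, the nearest in cdc7-7 endogenous Cse4 being 4701 bp away. Past its end, in front of TBF1, a gene for a telomere-repeat binding factor, lay a cdc7-7 GAL-CSE4 peak with a fold of 1.51 and a WT endogenous Cse4 peak with a fold of 1.30.

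HTZ1 (YOL012C, chromosome XV, 303579 to 303983, minus strand) shares a divergent region of 1365 bp with PLB3, a phospholipase B gene. A WT endogenous Cse4 peak of 926 bp reached 419 bp into the 1 kb upstream of HTZ1, with its summit 1182 bp from the HTZ1 start codon and 184 bp from that of PLB3, a pileup of 277 over 199 and a fold of 1.39 (rank 368 of 795). In cdc7-7 GAL-CSE4 a peak had its summit 22 bp from that one, 162 bp upstream of the PLB3 start codon, with a pileup of 214 over 148 and a fold of 1.44. It ranked 676 of the 932 peaks that touch a divergent promoter. It began outside the 1 kb window of HTZ1, so HTZ1 was not counted in that list, and with the whole divergent region as the window the count was 4 of 10. The nearest cdc7-7 endogenous Cse4 peak was 20380 bp from HTZ1, and the nearest WT GAL-CSE4 peak was 20913 bp from the divergent region. Both summits in the region were nearer to PLB3 than to HTZ1.

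**Figure D4:**
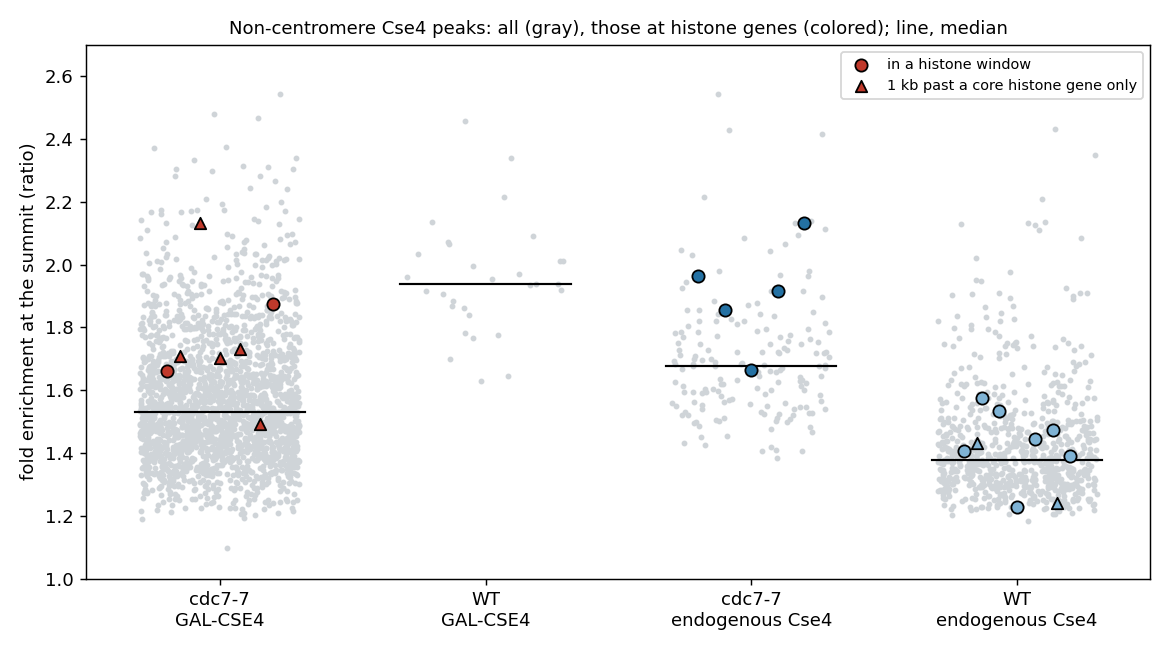
Fold enrichment at the summit (ratio, vertical axis) of every non-centromere peak in the 4 lists (gray points, black line at the median), with the peaks in the windows of the histone genes as circles and those found only in the 1 kb past a core gene as triangles. The points are set apart sideways for legibility. In cdc7-7 endogenous Cse4 4 of the 5 histone peaks lie above the median of 1.68, in WT endogenous Cse4 the histone peaks lie between 1.23 and 1.58 around a median of 1.38, and the highest histone-locus point in cdc7-7 GAL-CSE4 is that past HHF2, at 2.13.

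The histone peaks stood at different heights within their lists. In cdc7-7 GAL-CSE4, where the median non-centromere fold was 1.53, the 2 peaks in the windows stood at 1.66 and 1.87. In cdc7-7 endogenous Cse4, with a median of 1.68, the 5 stood between 1.66 and 2.13, 4 of them at ranks 6, 17, 22 and 27 of 167, and in WT endogenous Cse4, with a median of 1.38, the 7 stood between 1.23 and 1.58. Folds of different lists are not on a common scale, since the depths and medians differ. As a scale for the top of each list, the strongest peak at a divergent promoter was RTN1-LYS4 in cdc7-7 GAL-CSE4 (2.47), CNL1-GGA1 in WT GAL-CSE4 (2.21), YHR173C-ENO2 in cdc7-7 endogenous Cse4 (2.54) and GCN4-YEL008W in WT endogenous Cse4 (2.13).

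Depth weighed differently on the lists. When pileup and background were scaled to the depth of WT GAL-CSE4, the count was 3 of 10 genes in cdc7-7 GAL-CSE4, against 18.3% of all genes, so that it no longer lay below the share of all genes. It was 6 of 10 in cdc7-7 endogenous Cse4, against 2.68%, and 0 of 10 in WT endogenous Cse4, the deepest library, against 3.05%. The scaled list of WT endogenous Cse4 kept 68 of its 795 non-centromere peaks. At that depth 17.5% of all divergent promoters had a cdc7-7 GAL-CSE4 peak, beside the 0 of 4 core histone promoters, a count that scaling down could not raise.

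Genes that act on the histone loci were given the same window. Of 12 regulators of histone transcription, 7 (58.3%) had a peak in cdc7-7 GAL-CSE4, against 55.9% of all genes, 0 in WT GAL-CSE4, against 1.05%, 0 in cdc7-7 endogenous Cse4, against 4.75%, and 1, MBP1 (8.33%), in WT endogenous Cse4, against 20.2%. Of 16 histone chaperones and assembly factors 11 (68.8%) had a peak in cdc7-7 GAL-CSE4, 1 (6.25%) in WT GAL-CSE4, 1 (6.25%) in cdc7-7 endogenous Cse4 and 3 (MSI1, KAP123 and HAT1, 18.8%) in WT endogenous Cse4, beside the same shares of all genes. The strongest peak at HAT1, a histone acetyltransferase gene, was that of the centromere of chromosome XVI in each of the 4 lists, and HAT1 was the 1 counted in WT GAL-CSE4 and in cdc7-7 endogenous Cse4. The highest folds of these lists in cdc7-7 GAL-CSE4, centromere peaks aside, were 1.90 at YTA7, a bromodomain ATPase gene, 1.85 at HIR2, for a subunit of the HIR repressor, and 1.70 at ASF1, for an H3-H4 chaperone. VPS75, for a chaperone that works with the acetyltransferase Rtt109, and CAC2, for a subunit of chromatin assembly factor CAF-1, each had 1.67. The summits at YTA7 and ASF1 lay upstream of the start codon, and that at HIR2 was 13 bp inside the gene.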

How the data were processed

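Cse4 ChIP-seq of 4 conditions was used, as 4 narrowPeak lists, 1 for each ChIP library set against an input. The authors used Bowtie to place the read pairs on S288C, keeping those with a unique position, Samtools to drop duplicates, and MACS to call the peaks. The submitters' processing notes name Bowtie 1.0.0. The deposited values are a fold enrichment (a ratio to the local background, with a pseudocount of 1), a −log10 p and a −log10 q at each summit. Duplicate removal caps the pileup where fragments are dense, and only uniquely placed reads can form a peak.

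Pileup and background were solved from the fold and the Poisson −log10 p, which left 1 peak unsolved in each list but cdc7-7 GAL-CSE4, which had 2, and the solver was tested on simulated peaks. Overlap required 1 bp. Divergent promoters run from start codon to start codon of neighboring protein-coding genes of the R64 RefSeq annotation, and sequences are from the same build. The centromere peaks are those that overlap an annotated centromere. No test was made, as each condition has 1 library, and depth is given as the median background at the centromeres because the lists state no fragment totals.

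All 10 genes are described in each list, with the nearest peak for those without, the flanking gene where a summit lies nearer to it, at most 6 regulators or chaperones by fold, and the strongest divergent promoter of each list. MBP1, MSI1 and KAP123 were added to the named genes once their values were known. The members and the gene lists were chosen with earlier results of these data known. Alternatives were a −log10 q of at least 5, a fold of at least 2, summit or 50% overlap, upstream windows of 500 and 250 bp, the gene or its upstream part alone, scaled depth, other sets of divergent promoters, and other scales of the fold. Leaving out centromere peaks, the whole promoters of HTZ1 and HHO1 and the window past the gene end were added after seeing the data. Python 3.11.15, numpy 2.4.6, pandas 2.3.3, scipy 1.17.1 and matplotlib 3.10.9 were used.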

Additional observations from a re-analysis of the deposited data

How the results depend on the processing

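No paired analysis was possible because each condition has 1 library. The core histone promoters with a peak were already 0 of 4 in cdc7-7 GAL-CSE4 and in WT GAL-CSE4, and each alternative run for them only removes peaks or overlaps, so these counts could not change. The share of all divergent promoters in cdc7-7 GAL-CSE4 did change, to 17.5% at scaled depth and 2.62% at a fold of at least 2, against 57.3%. Requiring a fold of at least 2 left 0 of 10 genes in cdc7-7 GAL-CSE4 (2.82% of all genes), 1 of 4 promoters in cdc7-7 endogenous Cse4 (0.262% of all divergent promoters), and 0 of 10 genes (0.833%) and 0 of 4 promoters (0.196%) in WT endogenous Cse4. Requiring the summit in the window left 1 of 10 genes in cdc7-7 GAL-CSE4 (49.9%), 0 of 4 promoters in cdc7-7 endogenous Cse4 (1.05%) and 1 of 4 in WT endogenous Cse4 (7.14%). Requiring 50% of the peak in the window left 1 of 10 genes in cdc7-7 GAL-CSE4 (49.6%), 3 of 10 genes (3.4%) and 0 of 4 promoters (1.18%) in cdc7-7 endogenous Cse4, and 0 of 4 promoters in WT endogenous Cse4 (7.01%). With the gene alone as the window, WT endogenous Cse4 had 5 of 10 genes (11.6%). Scaled to the depth of WT GAL-CSE4, it had 0 of 10 genes (3.05%) and 0 of 4 promoters (0.786%). The other 52 recomputed counts of genes and promoters stayed within 1.5 times their value, the zeros that could not fall among them. Of the recomputed values of single peaks, other gene lists and background shares, 42 stayed within their counting interval or, for counts, within 1.5 times, and 20 did not, mostly the folds divided by their list's median, a change of scale. The peak lists hold no value at promoters without a peak, so an enrichment under the thresholds above is not seen here.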
